A study of Rattus norvegicus with 8 samples.

Results

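Transcripts of 8 enzymes of the mevalonate pathway (Acat2, Hmgcs1, Mvk, Pmvk, Mvd, Idi1, Fdps and Ggps1) were measured by RNA-seq in primary rat nucleus pulposus (NP) cells, the cells of the soft core of the intervertebral disc. They were chosen by symbol as enzymes between acetyl-CoA and geranylgeranyl diphosphate. All 8 were found among the 13543 genes in the table of names, each under 1 Ensembl identifier, and all 8 passed the filter on low counts. The study compared NP cells of adult Sprague Dawley rats, 3 to 6 months old per its methods, that carried lentiviral ShRNAs against Sirt6, a mixture of 3 clones (Sirt6-KD, S5 to S8), with cells that carried a control ShRNA (Sirt6-Ctrl, S1 to S4). Both groups were cultured in DMEM with serum and selected with puromycin, so the controls had the virus and the drug as well. Sirt6 encodes a chromatin-bound deacylase, and the comparison asked which transcripts changed when it was depleted. The series record speaks of cells from 4 rats with a control for each, but no label ties a Sirt6-KD library to a Sirt6-Ctrl library, so p-values measure the unpaired spread between libraries.

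The mevalonate pathway turns acetyl-CoA into isoprenoids. Acat2 joins acetyl-CoA units, Hmgcs1 makes HMG-CoA, the precursor of mevalonate, and Mvk, Pmvk and Mvd phosphorylate and decarboxylate mevalonate to isopentenyl diphosphate. Idi1 isomerizes that unit, Fdps builds farnesyl diphosphate, and Ggps1 extends it to geranylgeranyl diphosphate. Farnesyl diphosphate is the branch point to sterols, while both diphosphates supply the lipid anchors of small GTPases and the side chains of ubiquinone and dolichol. In most cells the transcription factor SREBP2 raises many of these genes when sterols run low.

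Libraries held 31994838 to 40124813 counts, with no difference in depth between the groups that passed the test (p = 0.257 by an exact permutation test, two-sided, 4 libraries in each group). ERCC spike-ins, synthetic RNAs added at a set amount, took 6.27% of the counts in S1 and 9.80% in S2, against 2.97% to 3.08% in S3 and S4 and 2.15% to 2.47% in the Sirt6-KD libraries (p = 0.0286 by the same exact permutation test, which cannot go lower with 4 against 4). S1 and S2 therefore stood apart, and each member is also given without them. Levels below are CPM, counts scaled to library size, normalized by TMM, which scales libraries so that most genes do not move, and tests are edgeR's quasi-likelihood test with Benjamini-Hochberg adjustment over all rows. Calls needed both an adjusted p under 0.05 and a change of more than 1.5-fold. Sirt6 (ENSRNOG00000006393) was at 56.4, 54.3, 52.5 and 47.6 CPM in S1 to S4 and at 21.8, 20.97, 19.2 and 20.6 CPM in S5 to S8, so that each library matched its label. It averaged 52.7 ± 3.78 CPM over the controls and 20.6 ± 1.07 CPM after knockdown (SD, n = 4 each), a log2 fold change of -1.35 (SE 0.13, edgeR adjusted p = 0.000713). Among NP markers, Acan, the aggrecan of disc matrix, was at 4.54, 15.5, 8.83 and 55.7 CPM in S1 to S4, so that S4 set the mean of Sirt6-Ctrl, and at 13.8 ± 4.08 CPM in Sirt6-KD. Sox9 was at 7.98 ± 5.21 CPM in Sirt6-Ctrl and 11.1 ± 4.16 in Sirt6-KD, while Krt18, Krt19, Col2a1 and Tbxt were not analysed here. Col1a1, the main collagen chain of annulus fibrosus and fibroblasts, was at 17093 ± 5599 CPM in Sirt6-Ctrl and 11032 ± 4373 in Sirt6-KD. Of 8 leukocyte markers 3 passed the count filter, and of 6 endothelial markers Tek, with 0 to 21 counts per library, did not pass it and the others were not analysed here.

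Of the 8 enzymes, 6 were called lower in Sirt6-KD (Hmgcs1, Idi1, Fdps, Mvd, Acat2 and Pmvk), where 10.7% of the 13250 genes tested were called lower. None was called higher, against 8.02% of all genes. At an unadjusted p below 0.05, 8 enzymes were lower and 0 higher with edgeR, 8 and 0 with DESeq2, and 7 and 0 with limma-voom. Many genes passed that threshold in either direction. Their share by direction was not counted for any of these methods, so the enzyme counts at this threshold lack a background. The edgeR ranks that follow take both directions together. Coq7, at an unadjusted edgeR p of 0.0475, ranked 4774 by p among the 13250 genes, while Mvk ranked 4526 and Ggps1 3651. In 7 of the 8, every Sirt6-KD library lay below every Sirt6-Ctrl library, a pattern that 15.6% of all genes showed. The exception was Mvk. All 8 log2 fold changes were negative with TMM, but those of Mvk, Pmvk and Ggps1 turned positive when libraries were scaled by their spike-ins. The members' median log2 fold change was -1.65, and that of all genes was -0.016. Fewer cells making a transcript and less transcript per cell cannot be told apart in these bulk libraries.

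**Figure D1:**
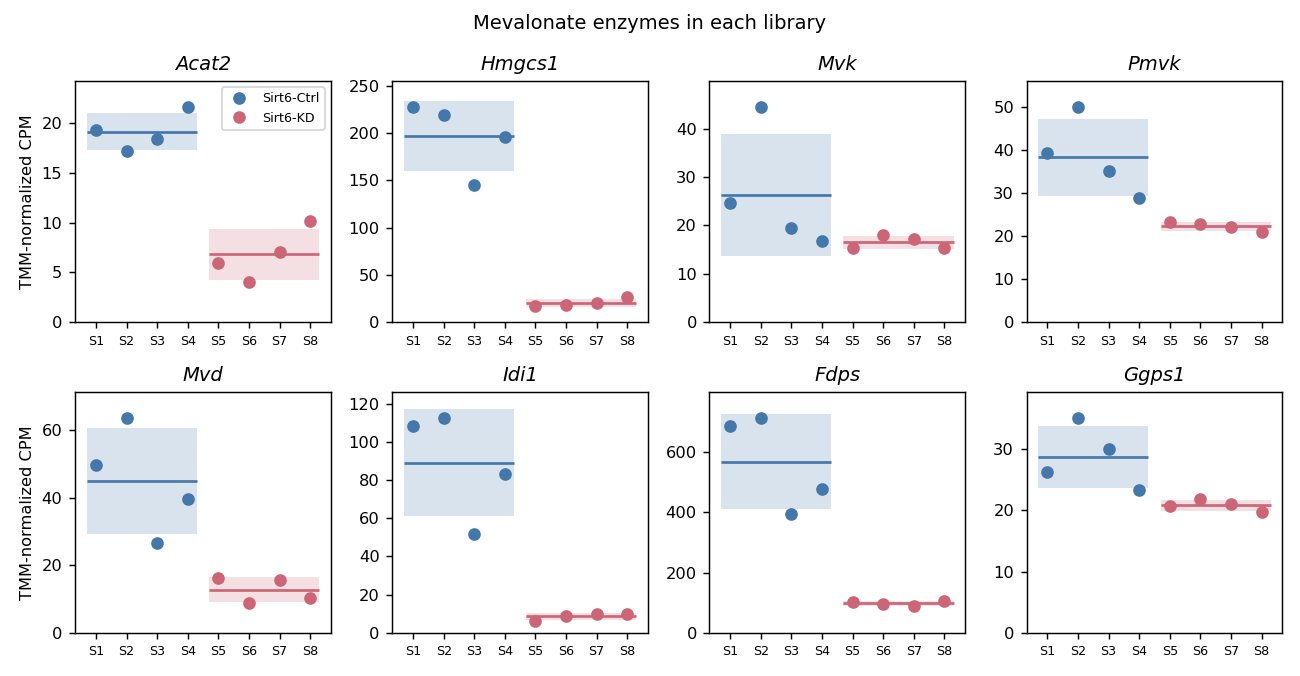
TMM-normalized CPM of each enzyme (vertical axes, each from 0) in the 8 libraries, with the group mean as a line and 1 SD either side as a band, n = 4 per group. Sirt6-KD points lie below all Sirt6-Ctrl points for every enzyme except Mvk, and with spike-in scaling in place of TMM the mean changes of Mvk, Pmvk and Ggps1 had the opposite sign.

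Promoter sequences of 7 of the 8 enzymes were matched by symbol in RefSeq (build GRCr8), each running from 250 bases before to 50 bases after the annotated start, and Pmvk was not matched. Those of the 3 enzymes with the largest falls, and of Ggps1, which had the smallest change with TMM over all 8 libraries (without S1 and S2 that of Mvk was smaller, and with spike-in scaling that of Pmvk was nearest 0), are shown side by side. They are written 5′ to 3′ on the strand of the gene, and capitals mark the CCAAT box, the motif bound by NF-Y, either as CCAAT or as its reverse complement ATTGG. Hmgcs1 lies at chr2:53382054-53382353 on the + strand, Idi1 at chr17:66547475-66547774 on the - strand, Fdps at chr2:176804767-176805066 on the - strand and Ggps1 at chr17:55958500-55958799 on the + strand.
Hmgcs1: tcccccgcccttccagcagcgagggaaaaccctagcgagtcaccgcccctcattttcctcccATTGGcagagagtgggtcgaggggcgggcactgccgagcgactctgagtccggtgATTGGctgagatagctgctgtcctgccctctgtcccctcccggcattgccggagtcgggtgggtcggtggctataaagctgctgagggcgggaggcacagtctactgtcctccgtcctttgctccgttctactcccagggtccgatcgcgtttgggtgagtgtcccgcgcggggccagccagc
Idi1: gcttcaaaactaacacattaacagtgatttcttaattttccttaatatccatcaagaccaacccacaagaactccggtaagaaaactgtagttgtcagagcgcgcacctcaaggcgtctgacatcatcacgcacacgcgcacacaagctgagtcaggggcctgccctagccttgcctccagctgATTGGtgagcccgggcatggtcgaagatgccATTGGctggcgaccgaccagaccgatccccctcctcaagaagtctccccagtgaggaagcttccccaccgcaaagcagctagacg
Fdps: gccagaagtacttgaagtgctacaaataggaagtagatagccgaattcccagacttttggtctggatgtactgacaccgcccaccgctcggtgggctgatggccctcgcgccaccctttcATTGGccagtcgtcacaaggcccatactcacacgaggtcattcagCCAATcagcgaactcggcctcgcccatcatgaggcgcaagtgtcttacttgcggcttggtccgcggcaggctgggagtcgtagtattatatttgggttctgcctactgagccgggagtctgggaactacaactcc
Ggps1: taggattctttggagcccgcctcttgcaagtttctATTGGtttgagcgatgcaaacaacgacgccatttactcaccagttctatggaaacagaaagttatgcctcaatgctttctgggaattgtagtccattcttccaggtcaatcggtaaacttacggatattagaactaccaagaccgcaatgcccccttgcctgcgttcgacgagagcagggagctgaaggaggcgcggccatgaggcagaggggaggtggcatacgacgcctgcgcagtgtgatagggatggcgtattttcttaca
Hmgcs1, Idi1 and Fdps each held 2 CCAAT boxes and Ggps1 held 1. The boxes began 188 and 133 bases before the start in Hmgcs1, 66 and 35 before it in Idi1, 130 and 85 in Fdps, and 215 in Ggps1. Mvd held 2 boxes, 35 and 2 bases before the start, and Acat2 none. Mvk, which was not called, held 5, at 173, 120, 67, 50 and 14 bases before the start. Whether the number or place of the boxes goes with the response was not tested. The Mvk window shares 247 of its 300 bases with that of Mmab, which is read from the opposite strand. At least 1 box on either strand was found in 37.5% of 33469 promoters of the same length, at least 2 in 11.2%, and at least 5 in 0.218%. Over the 10500 promoters matched to genes tested here the shares were 37.2%, 13.5% and 0.438%. The GC box GGGCGG, searched on both strands, was found 4 times in Hmgcs1, 2 times each in Acat2, Mvk and Mvd, 1 time in Fdps and not in Idi1 or Ggps1, and occurred in 33.1% of all promoters and 62.2% of those of tested genes. TCACNCCA, a core of the sterol regulatory element, was not in any of the 7 windows and occurred in 3.89% of all promoters. Only that exact core was searched, on both strands, so other forms of the element could have been missed. None of these matches overlapped another. A match is a run of letters and not evidence of binding.

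The first reactions were measured through Acat2 and Hmgcs1. Acat2 (ENSRNOG00000019189), the cytosolic acetyl-CoA acetyltransferase, stood at 19.3, 17.2, 18.4 and 21.6 CPM in S1 to S4 and at 5.99, 4.06, 7.04 and 10.2 CPM in S5 to S8. S8 was the highest Sirt6-KD library and still lay well under the lowest control. The mean fell from 19.1 ± 1.87 to 6.82 ± 2.56 CPM (SD, n = 4 each), which left 35.6% of the control mean, at a log2 fold change of -1.49 (SE 0.28, edgeR adjusted p = 0.00778). Acat2 had the tightest controls of the 8 enzymes, with a ratio of highest to lowest library of 1.26, and the loosest Sirt6-KD group, with a ratio of 2.51. Without S1 and S2 the log2 fold change was -1.54 (edgeR adjusted p = 0.0185). Its reads are uncertain because RefSeq lists 3 genes named as copies of it and an overlapping gene, and the strand setting of the counting is not given in the sources used here. Of these copies, Acat2l1, looked up after its values were seen, went from 11 ± 5.64 to 4.19 ± 1.63 CPM (SD, n = 4 each), a log2 fold change of -1.39 (SE 0.42, edgeR adjusted p = 0.0392).

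Hmgcs1 (ENSRNOG00000016552), the cytosolic HMG-CoA synthase and the holder of 4 GC boxes in its promoter, was at 228, 219, 145 and 196 CPM in S1 to S4. In S5 to S8 it was at 16.8, 18.5, 20.1 and 26.2 CPM. The groups were separated by a wide gap, and S3 was the lowest control. The mean of 197 ± 37.2 CPM fell to 20.4 ± 4.09 CPM (SD, n = 4 each), or 10.4% of the control, at a log2 fold change of -3.27 (SE 0.20, edgeR adjusted p = 2.4e-05). By p it ranked 4 among the 13250 genes tested, the lowest rank number of any member. Leaving out S1 and S2 gave -3.05 (edgeR adjusted p = 0.000162). RefSeq lists an overlapping gene, LOC102547360, at this locus, which was not analysed here.

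The 3 enzymes that carry mevalonate to isopentenyl diphosphate did not move alike. Mvk (ENSRNOG00000049604), mevalonate kinase, was at 24.6, 44.5, 19.4 and 16.7 CPM in S1 to S4 and at 15.3, 17.95, 17.3 and 15.3 CPM in S5 to S8. The groups overlapped, since S4 lay under S6 and S7, and S2 alone was far above the rest. The means were 26.3 ± 12.6 and 16.5 ± 1.36 CPM (SD, n = 4 each), and the log2 fold change of -0.68 did not pass the test (SE 0.29, edgeR adjusted p = 0.118). Without S2 it was -0.28, and without S1 and S2 it was -0.12 (edgeR adjusted p = 0.666). Pmvk (ENSRNOG00000020696), phosphomevalonate kinase, was at 39.2, 50.01, 35.0 and 28.7 CPM in S1 to S4. In S5 to S8 it was at 23.3, 22.7, 22.1 and 21.0 CPM. Here the groups did not overlap, although S4 came near the Sirt6-KD libraries, which lay within a ratio of 1.11 of each other. The mean went from 38.2 ± 8.95 to 22.3 ± 0.994 CPM (SD, n = 4 each), 58.2% of the control, at a log2 fold change of -0.78 (SE 0.18, edgeR adjusted p = 0.0165). This call was lost without S1 and S2 (-0.51, edgeR adjusted p = 0.0521) and on leaving out S6, S7 or S8 (edgeR adjusted p = 0.0543, 0.0532 and 0.0509).

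Mvd (ENSRNOG00000013376), the decarboxylase that yields isopentenyl diphosphate, was at 49.6, 63.7, 26.7 and 39.7 CPM in S1 to S4 and at 16.3, 8.81, 15.6 and 10.2 CPM in S5 to S8. S3 was again the lowest control and S2 the highest, and no Sirt6-KD library reached S3. From 44.9 ± 15.7 the mean fell to 12.7 ± 3.76 CPM (SD, n = 4 each), 28.3% of the control, at a log2 fold change of -1.82 (SE 0.30, edgeR adjusted p = 0.00454). Without S1 and S2 it was -1.37 (edgeR adjusted p = 0.0174).

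The enzymes that make and join the isoprene units, Idi1 and Fdps, had 2 of the 3 largest falls. Idi1 (ENSRNOG00000016690), isopentenyl diphosphate isomerase, was at 108, 113, 52.0 and 83.4 CPM in S1 to S4 and at 6.16, 8.78, 9.65 and 9.62 CPM in S5 to S8. Even S3, the lowest control, was several times the highest Sirt6-KD library. The mean fell from 89.2 ± 27.98 to 8.55 ± 1.64 CPM (SD, n = 4 each), leaving 9.59%, the smallest share of any member, at a log2 fold change of -3.38 (SE 0.27, edgeR adjusted p = 0.000164). It was -2.97 without S1 and S2 (edgeR adjusted p = 0.000591). In RefSeq the gene Wdr37 overlaps Idi1, and, looked up after its values were seen, it went from 31.6 ± 4.68 to 15.1 ± 1.46 CPM (SD, n = 4 each), a log2 fold change of -1.06 (SE 0.17, edgeR adjusted p = 0.00435). How far reads of the pair were mixed was not tested. RefSeq also lists a pseudogene of Idi1, Idi1-ps1, with which reads could be shared.

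Fdps (ENSRNOG00000043377), farnesyl diphosphate synthase and the target of nitrogen-containing bisphosphonates, was at 687, 714, 395 and 476.5 CPM in S1 to S4. In S5 to S8 it was at 102, 95.3, 88.7 and 106 CPM. The controls split into S1 and S2 above S3 and S4, whereas the Sirt6-KD libraries lay close together. The mean fell from 568 ± 157 to 98.3 ± 7.87 CPM (SD, n = 4 each), 17.3% of the control, at a log2 fold change of -2.53 (SE 0.20, edgeR adjusted p = 0.000164), and without S1 and S2 it was -2.14 (edgeR adjusted p = 0.000142). RefSeq lists 5 Fdps pseudogenes, with which reads could be shared. Ggps1 (ENSRNOG00000016767), geranylgeranyl diphosphate synthase, was at 26.3, 35.2, 30.1 and 23.4 CPM in S1 to S4 and at 20.7, 21.9, 21.0 and 19.8 CPM in S5 to S8. No library crossed between the groups, but the nearest of the pair of groups, S4 and S6, were close. The means were 28.7 ± 5.09 and 20.8 ± 0.843 CPM (SD, n = 4 each), and the log2 fold change of -0.46 did not pass the test (SE 0.17, edgeR adjusted p = 0.0763). With DESeq2 its adjusted p was 0.0491, still under the fold threshold. Without S1 and S2 it was -0.35 (edgeR adjusted p = 0.165).

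**Figure D2:**
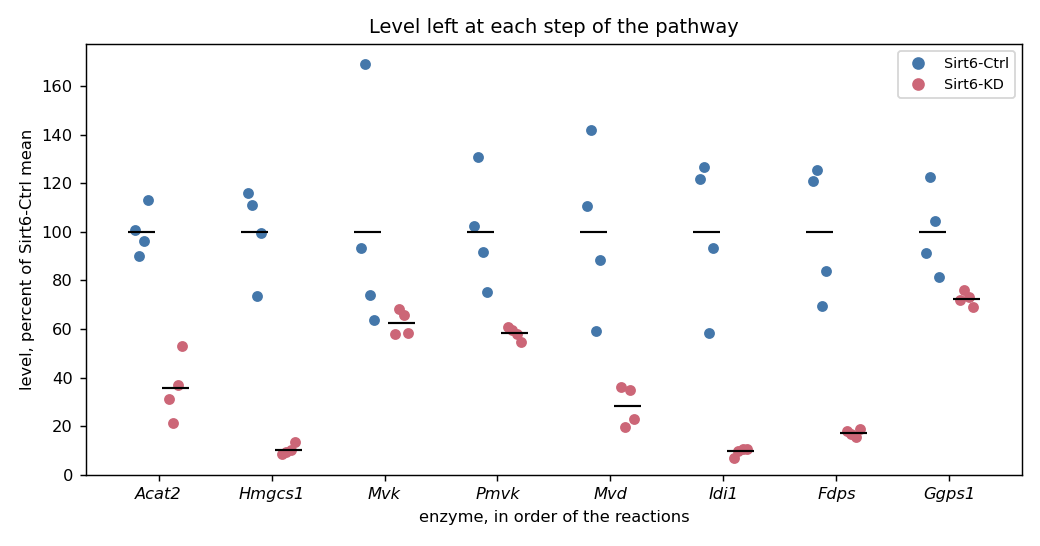
Level of each of the 8 enzymes as a percent of the Sirt6-Ctrl mean (vertical axis) in the order of the reactions (horizontal axis). Each point is 1 library and each line a group mean. The Sirt6-KD means run from 9.59% for Idi1 to 72.5% for Ggps1 on the TMM scale, and Mvk, Pmvk and Ggps1 had the opposite sign with spike-in scaling.

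The order along the pathway was not an order of response, since the enzymes with the smallest changes, Mvk, Pmvk and Ggps1, stand at the middle and at the end. The log2 fold changes of the members are described next by whether their ranges of 1 SE overlapped, which is no test of a difference. Idi1 and Hmgcs1 were within 1 SE of each other, and Fdps overlapped neither these nor Mvd at 1 SE. Mvd and Acat2 overlapped at 1 SE, as did Pmvk, Mvk and Ggps1. No difference between enzymes was tested. Summed over the 8 enzymes, a sum in which the most abundant reads weigh most, Sirt6-Ctrl libraries were at 1183, 1256, 721 and 886 CPM and Sirt6-KD libraries at 198 to 219 CPM. The controls thus differed more from one another than the Sirt6-KD libraries did.

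Within the controls S2 was the highest library for 6 of the 8 enzymes, S3 was the lowest for 4 (Hmgcs1, Mvd, Idi1 and Fdps) and S4 for 3 (Mvk, Pmvk and Ggps1). The ratio of highest to lowest control ran from 1.26 for Acat2 to 2.66 for Mvk. In Sirt6-KD it ran from 1.10 for Ggps1 to 2.51 for Acat2, and no single library was the highest, or the lowest, for more than 3 enzymes. S2 was also the library with the largest share of spike-ins, whose part in these levels was not tested.

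Scaling by the spike-ins moved the median log2 change over all genes to 0.94, so members are also given relative to it. On that scale 4 of the 13250 genes tested were called lower and 20 higher. No enzyme was called, although Hmgcs1, Idi1 and Fdps had an unadjusted p below 0.05. Hmgcs1 was at -2.21, Idi1 at -2.23 and Fdps at -1.40 (edgeR adjusted p = 0.0711, 0.0711 and 0.0834), or -3.15, -3.18 and -2.34 relative to the median. Mvd was at -0.64 and Acat2 at -0.55, or -1.58 and -1.49 relative to it. Mvk, Pmvk and Ggps1 were above 0, at 0.57, 0.31 and 0.56, or -0.38, -0.63 and -0.38 relative to the median. Sirt6 itself was not called on this scale, at -0.36 (edgeR adjusted p = 0.567), or -1.31 relative to the median. All 8 enzymes lay below the median gene under either scaling, and for 3 of them the sign against 0 depended on the scaling. A scaling moves all genes nearly alike, so values relative to the median stay close by construction and are no separate check.

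**Figure D3:**
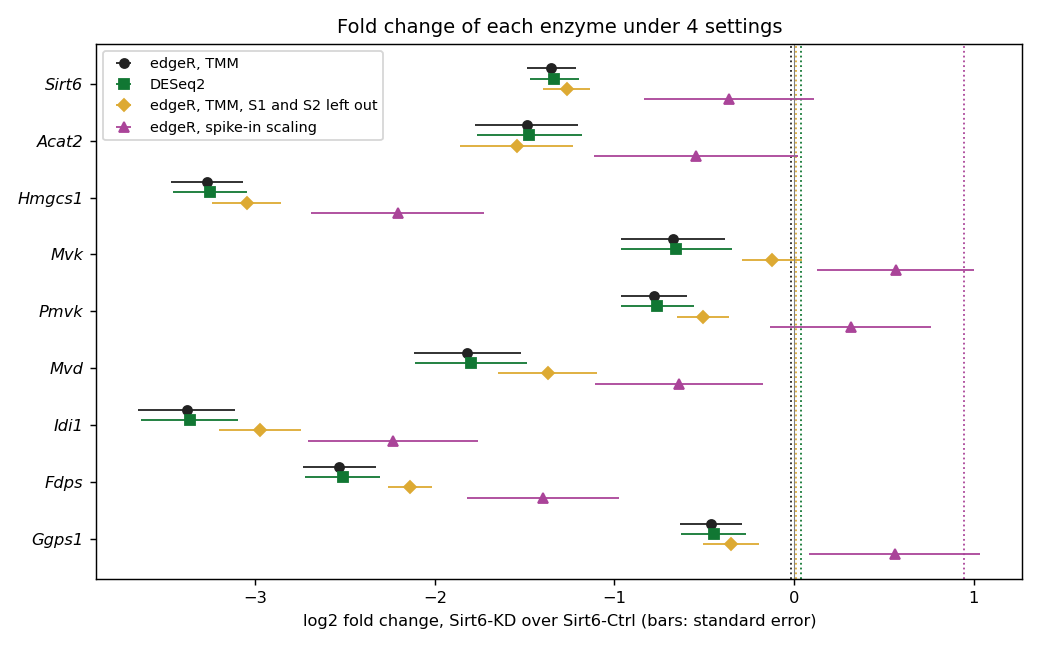
Log2 fold change (Sirt6-KD over Sirt6-Ctrl, horizontal axis) of Sirt6 and the 8 enzymes with TMM, with DESeq2, without S1 and S2, and with spike-in scaling; bars are 1 SE and each dotted line is the median of all genes under the setting of the same color. Spike-in scaling moved every value to the right and put Mvk, Pmvk and Ggps1 above 0, while the median of all genes moved to 0.94.

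The genes that feed the pathway were counted next. Over all genes 10.7% were called lower and 8.02% higher. Of 4 genes of acetyl-CoA supply, 2 were called lower and 0 higher, and their median log2 fold change was -0.59. These were Acss2, which activates acetate (-0.92, edgeR adjusted p = 0.0362), and the citrate carrier Slc25a1 (-0.78, edgeR adjusted p = 0.0138). Acly, which splits citrate into acetyl-CoA in the cytosol, was at -0.19 (edgeR adjusted p = 0.229), and the mitochondrial thiolase Acat1 at -0.40 (edgeR adjusted p = 0.189).

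Counts in the branches past farnesyl diphosphate follow, beside 10.7% of all genes called lower and 8.02% called higher. Differences between the lists, or from all genes, were not tested. Toward sterols, 12 of 13 genes from squalene to cholesterol were called lower and 0 higher, with a median log2 fold change of -1.42. With each library left out in turn, 9 to 12 of them were called lower. The largest falls there were those of the demethylase Cyp51 (-3.17), the reductase Dhcr7 (-2.97), the methyl oxidase Msmo1 (-2.42) and the epoxidase Sqle (-2.04). Fdft1, squalene synthase and the first enzyme of that branch, was at -1.05 (edgeR adjusted p = 0.00143), and Lbr, a sterol reductase that also binds lamins, was not called at 0.15 (edgeR adjusted p = 0.703). Toward ubiquinone, 4 of 11 genes were called lower and 0 higher, with a median of -0.65. These were Coq5 (-1.32), Coq3 (-1.16), Coq2 (-0.95) and Coq9 (-0.65). Pdss1 and Pdss2, which build the isoprenoid tail, were at -0.59 and -0.83 and were not called (edgeR adjusted p = 0.339 and 0.0573). Among 8 genes of dolichol and other isoprenoid products, only Cox10, which farnesylates heme, was called (-0.81, edgeR adjusted p = 0.0151), and the median was -0.44. That count was 0 without S6 and 2 without S3. Nus1 and Dhdds, whose proteins together make the dolichol chain, were at -0.54 and 0.026 (edgeR adjusted p = 0.0528 and 0.948). The ubiquinone count was 1 without S6 or S7 and 2 without S1, S5 or S8, and the count of acetyl-CoA supply genes was 0 without S6 or S7 and 1 without S1, S4, S5 or S8.

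Among enzymes that attach farnesyl or geranylgeranyl groups to proteins and process them, 1 of 9 tested was called lower and 1 higher, with a median of 0.42, where 10.7% and 8.02% of all genes were called. The count called higher was 2 with DESeq2 and 4 with limma-voom, where 1602 of 18758 and 1591 of 13250 genes were called higher. With edgeR the protease Rce1 was lower (-0.92, edgeR adjusted p = 0.0280). Pggt1b, the beta subunit of the enzyme that adds a single geranylgeranyl group, was higher (0.81, edgeR adjusted p = 0.0140). Fntb, the beta subunit of farnesyltransferase, was at 0.56 (edgeR adjusted p = 0.0669), and Chm, which escorts Rab GTPases, at 1.17 (edgeR adjusted p = 0.125). Of 17 GTPases and lamins that carry such groups, 3 were called lower and 2 higher, where again 10.7% and 8.02% of all genes were called. Rhob, a short-lived prenylated GTPase, was at -1.34, Rheb at -0.68 and Hras at -0.61, while Lmnb1 was at 0.99 and Nras at 0.91 on the log2 scale. Rhoa had an edgeR adjusted p of 0.0166 but a change below the fold threshold (-0.56), and Rac1 was at -0.20 (edgeR adjusted p = 0.367). Their median was 0.15. Without S1, S5, S6, S7 or S8 no prenylation enzyme was called lower, without S3 4 were called higher, and without S1, S6 or S7 no GTPase or lamin was called higher. The GTPases and lamins called lower were 1 without S1, and 1 without S1 and S2.

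Against 10.7% and 8.02% of all genes, 5 of 17 tested genes of sterol sensing and uptake were called lower and 0 higher. Their median was -0.047. With each library left out in turn, 4 to 7 were called lower and 0 to 1 higher. The 5 called lower included both genes of the SREBP factors, Srebf1 (-2.0, edgeR adjusted p = 0.000366) and Srebf2 (-1.23, edgeR adjusted p = 0.00143). Insig1, which holds SREBP in the endoplasmic reticulum and is itself a target of it, was at -1.19, and Npc2, which moves cholesterol out of lysosomes, at -1.16. Nr1h2, a sterol-sensing nuclear receptor, was at -0.64 (edgeR adjusted p = 0.0115). Scap, the escort of SREBP, and the cholesterol exporter Abca1 were at -0.06 and -0.05 and were not called (edgeR adjusted p = 0.783 and 0.886). With spike-in scaling no gene of any of these lists was called in either direction. Over all genes that scaling left 4 called lower and 20 higher.

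**Figure D4:**
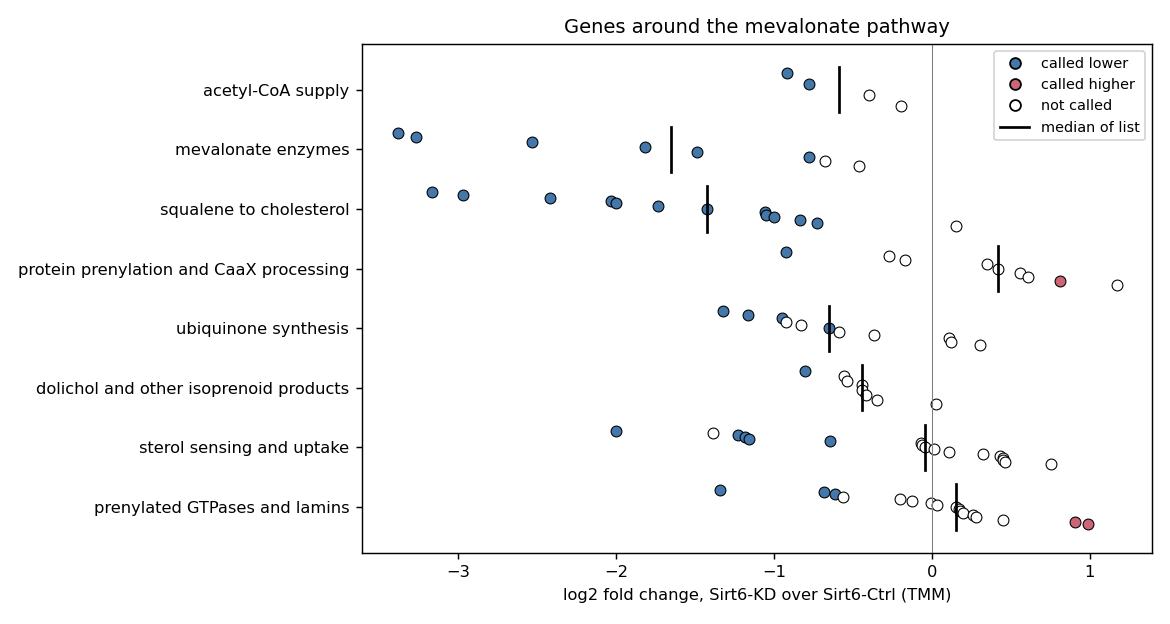
Log2 fold change (TMM scale, horizontal axis) of every tested gene in 8 lists around the pathway (rows), with filled points for called genes and a bar at the median of each list. The mevalonate and squalene to cholesterol rows lie furthest left, at medians of -1.65 and -1.42, and with spike-in scaling no point would be filled and Mvk, Pmvk and Ggps1 would lie above 0.

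Genes near the enzymes or related to them were few among those tested. Tcp1, next to Acat2, was at -0.15 (edgeR adjusted p = 0.361), and Mmab, which shares its promoter region with Mvk, was at -0.40 (edgeR adjusted p = 0.375). Acat3, Idi2 and Arid4b were not analysed here. By profile, the members' median was compared with every tested gene as the root-mean-square (RMS) difference of centered log2 CPM over the 8 libraries. The closest 5 genes outside the lists were LOC102546764 (0.155), the steroid reductase Srd5a1 (0.19), the zinc finger gene Zfp394 (0.21), the vesicle transport gene Bet1l (0.226) and the collagen gene Col20a1 (0.233). All 5 were called lower, with log2 fold changes from -1.80 to -1.58. They were picked for closeness to a profile that is itself lower in Sirt6-KD, so these calls follow from the choice. Among the members Mvd was closest to their own median (0.201) and Idi1 farthest (0.85). The points of these profiles share their libraries, so the likeness is a description. Of the genes named around the pathway, a single library stood far from the rest of its group for Acat1 and Rhob (S8), Coq3 (S7), and Cox10 and LOC102546764 (S2).

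Markers of cell types were read in the same libraries. The summed level of 13 tested NP markers was 1054 to 2717 CPM in Sirt6-Ctrl and 3247 to 4230 CPM in Sirt6-KD, mostly from Slc2a1, a glucose transporter (log2 fold change 1.27, edgeR adjusted p = 0.0225), while Krt8 (-1.32) and Car3 (-2.70) were called lower (edgeR adjusted p = 0.0441 and 0.0127). The summed annulus and fibroblast markers were at 14528 to 27479 CPM in Sirt6-Ctrl and 8671 to 18518 CPM in Sirt6-KD. Of 7 tested, 2 were called lower, Col3a1 (-1.38) and Scx (-1.20), where 10.7% of all genes were called lower. Summed leukocyte markers were at 11.9 to 29.7 and 14.96 to 23.8 CPM, and the endothelial Tek at 0 to 0.509 and 0.179 to 0.592 CPM. The part of NP and annulus markers in the enzymes' change was not tested. Tek was at or near 0 in every library.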

How the data were processed

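Primary rat NP cells were profiled by RNA-seq in 4 Sirt6-Ctrl and 4 Sirt6-KD libraries. Raw counts for each Ensembl gene and spike-in (32975 rows, 92 of them spike-ins) were deposited by the authors, with a table of gene names with normalized signal, the counts divided by 1 size factor per library. The deposited signal was used only to check the counts. The fold changes, p-values and adjusted p-values of the authors' own comparison in that table were not used. The submitters' processing notes list Trimmomatic 0.36, STAR 2.5.2b, Subread 1.5.2 with featureCounts, DESeq2 and the build Rnor_6.0.

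Rows were filtered with filterByExpr (13313 left, 63 of them spike-ins, and 72 genes without a name), normalized by TMM and tested with edgeR 4.0.16 in R 4.3.3 (glmQLFTest, two-sided, Benjamini-Hochberg over all rows). Standard errors (SE) were taken from the log2 fold change and its F. Groups came from the genotype labels. Alternatives used DESeq2 1.42.0, limma-voom (limma 3.58.1), other scalings, filters and call rules, and libraries left out. The spread of pairs of libraries exceeded sampling noise in all cases, so each library counted once. A count of 3 is 0.0748 to 0.0938 CPM, which covers counting error only, as reads here carry no molecular identifiers and may repeat a molecule. The script recovered changed genes on simulated data. That simulation set no shift in spike-ins between libraries, so it does not bear on the spike-in scaling.

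The members and lists were chosen with earlier results of these data known. Named genes were all members, Sirt6, neighbours, at most 4 called and 2 other genes per list, and the 5 closest profiles. Fdft1, Nr1h2 and Hras were named after their values were seen. Some genes are not reported here and were left out of the lists. The NP marker Shh and other genes without a name in the table were not analysed here.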

Additional observations from a re-analysis of the deposited data

Results flagged for a closer look

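In a group of 4 libraries, a library was singled out when its gap to the nearest other, as a share of the range of the group, exceeded Dixon's critical value. Of 110 groups examined 5 met this, and chance gives about 1 in 20, or 5.5. None was a group of a mevalonate enzyme. In Sirt6-KD, S8 was far above the others for Acat1 (gap 0.883 of the range) and Rhob (0.842), and S7 was far below them for Coq3 (0.858). In Sirt6-Ctrl, S2 was far below the others for Cox10 (0.939) and far above them for LOC102546764 (0.87).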

How the results depend on the processing

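The count of 6 enzymes called lower held with DESeq2, limma-voom, RLE size factors, library totals, spike-in rows removed, other count filters and no minimum fold. It was 5 without S1 and S2, 4 with glmTreat against a fold of 1.5 (Acat2 and Pmvk lost), 5 to 6 with each library left out in turn, and 0 with spike-in scaling. The count called higher was 0 throughout, and 0 to 0 on leaving libraries out. With spike-in scaling Mvk (0.57), Pmvk (0.31) and Ggps1 (0.56) reversed, and the cause was not tested. Leaving out each library in turn, log2 fold changes stayed between -3.57 and -3.23 for Idi1, -3.39 and -3.16 for Hmgcs1, -2.67 and -2.39 for Fdps, -2.0 and -1.59 for Mvd, -1.71 and -1.31 for Acat2, -0.90 and -0.61 for Pmvk, -0.84 and -0.28 for Mvk (the latter without S2), and -0.55 and -0.34 for Ggps1. Over all genes 1416 were called lower and 1063 higher. These were 4 and 20 with spike-in scaling, 185 and 92 with glmTreat, 709 and 810 without S1 and S2, 1730 and 1602 with DESeq2, 1309 and 1591 with limma-voom, and 700 to 1913 and 445 to 1699 with libraries left out (lowest without S6, and also moved by over 1.5 times without S1, S5 or S7 and, for genes called higher, without S3). Counts in other lists also moved, as for ubiquinone genes called lower (1 to 6 with libraries left out, lowest without S6 or S7), acetyl-CoA supply genes (0 to 2, lowest without S6 or S7), prenylation enzymes called higher (0 to 4) and GTPases and lamins called lower (1 to 4, lowest without S1). Squalene to cholesterol genes called lower were 9 to 12 with libraries left out, and those of sterol sensing and uptake 4 to 7. Prenylation enzymes called higher were 2 with DESeq2 and 4 with limma-voom. No paired analysis was possible because the labels tie no Sirt6-KD library to a Sirt6-Ctrl library.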
